A study of Mus musculus with 16 samples.

Results

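Medium without and with fetal calf serum (FCS) was compared in mouse embryonic stem cells (ESC) of the EB5 NERT line on 4 of the 16 arrays of the series. Arrays were chosen by their sample labels. ESCe are EB5 NERT cells in a medium without FCS that is meant to favour ectoderm, made on GMEM with 1 mM pyruvate added, with 1 array without and 1 with 4-hydroxytamoxifen (OHT, 1 µM for 4 h). ESCm are the same cells in a medium that is meant to favour mesoderm, made on Knockout-DMEM with 1% FCS, again with 1 array without and 1 with OHT. Both media held Knockout Serum Replacement at 10%, 2-mercaptoethanol at 100 µM and non-essential amino acids at 1%. The paper lists added L-glutamine for the ESCm medium only. The media therefore differed in base medium, pyruvate and added glutamine as well as in FCS, and these cannot be told apart. ESCe were without FCS but not without serum replacement. Cells were on gelatine and in the test media for 4 h. All 4 arrays come from 1 line that carries NERT, a fusion of intracellular Notch1 with a receptor domain that binds OHT, so OHT switches on Notch1 in both media. A further 2 arrays hold EB5 control ESC, which lack NERT, in the ESCm medium without and with OHT, and no control array in the ESCe medium was analysed here. The other 10 arrays hold mesodermal cells, some treated with cycloheximide. They entered the estimate of spread, the choice of probe sets to test and to stand for a gene, and any rescaling of the arrays. Values are model-based expression intensities on a linear scale. Differences are ESCe minus ESCm of log2 (intensity + 25), given first without and then with OHT, and understate the change of weakly expressed genes. Where several probe sets name a gene, the one with the highest mean intensity stands for it.

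Serum carries lipoprotein cholesterol, growth factors, lysophospholipids and metal-binding proteins. Cells short of sterol release the SREBP factors from the endoplasmic reticulum to the nucleus, where they switch on the enzymes that build cholesterol from acetyl-CoA and the receptor that takes up lipoprotein. Growth factors of serum act through MAP kinase and SRF on immediate early genes, and through AKT they hold FOXO factors out of the nucleus. ESC of the mouse hold their undifferentiated state through LIF and Stat3 and the factors Oct4, Sox2 and Nanog.

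The labelled cell type was borne out by its markers, since all 10 ESC markers stood at 50 or more on all 4 arrays and their summed intensity was 36240 and 38070 in ESCe and 36530 and 37600 in ESCm. Pou5f1 (Oct4), the core pluripotency factor, was at 2876 and 2860 in ESCe and at 2954 and 2854 in ESCm. Among markers of other cells, 3 of 6 for early mesoderm, 2 of 5 for neuroectoderm, 2 of 6 for endoderm, 1 of 5 for trophoblast and 3 of 8 for fibroblasts reached 50 on all 4 arrays. The summed fibroblast markers moved with the medium, with 1167 and 1086 in ESCe and 995.9 and 904.4 in ESCm, while the fibroblast genes Postn, Lum, Dcn and Twist1 stayed under 50 throughout. The summed early mesoderm markers were likewise higher in ESCe, at 679.0 and 606.8 against 577.4 and 561.4. Neuroectoderm sums were higher within each OHT state (435.0 and 758.2 against 400.9 and 720.8). Endoderm and trophoblast sums changed direction between OHT states. The part of fibroblasts in the differences between media was not tested. In bulk samples, fewer cells of a type and less RNA per cell cannot be told apart.

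No medium difference passed the test over all 16 arrays (limma with 6 residual degrees of freedom, adjusted p under 0.05 and the same sign in both OHT states). It called 0 of 25847 probe sets, that is 0%, and 768 had an unadjusted p under 0.05 (2.97%). Fitting only the 4 ESC arrays of the NERT line called 1433 probe sets, 1125 of them higher in ESCe (4.35%) and 308 lower (1.19%). These were 714 genes higher (5.59% of 12763) and 130 genes lower (1.02%). These shares are the background for the calls of each list below. That fit has 1 residual degree of freedom and takes nearly the same spread for all probe sets of like intensity (prior of 483.9 degrees of freedom). Without the trend of spread with intensity the prior had 4.0 degrees of freedom, and none was called. Its calls are named below as calls among the 4 arrays, and they are weaker evidence than calls of the main test would be. They depend on the scaling as well, with 186 probe sets higher and 190 lower after quantile normalization of the arrays, and 1520 higher and 255 lower after scaling to the same median. With the 2 control ESC arrays added, a limma fit of 6 arrays left 2 residual degrees of freedom. It called 264 probe sets, and 127 genes were higher in ESCe (0.995%). Each medium and OHT state has 1 array, and nothing says that arrays came from separate cultures, so the p-values cover array-to-array spread that may be technical only.

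The medium contrast was smaller than that of OHT or of the line, and close to that between the control arrays. ESCe and ESCm were 0.22 apart without OHT and 0.19 with OHT, by the root mean square of the log2 difference of 25847 probe sets, against 0.18 between the control ESCm arrays without and with OHT. NERT cells without and with OHT were 0.25 apart in ESCe and 0.26 in ESCm, and the NERT and control lines in the same ESCm medium differed by 0.28 without OHT and 0.30 with it. Of 12763 genes 46.2% were higher in ESCe in both OHT states, 18.7% were lower in both and 35.1% changed sign between the states. After quantile normalization 33.7% were higher and 27.9% lower in both. The 2 ESCe arrays both lay above the 2 ESCm arrays for 26.1% of genes and below them for 10.1%. The median difference was 0.05 without and 0.06 with OHT, so small positive differences are the background of every list below. Only 10 genes differed by at least 1.5-fold on the log2 scale used here in both states, 7 higher in ESCe and 3 lower.

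**Figure D1:**
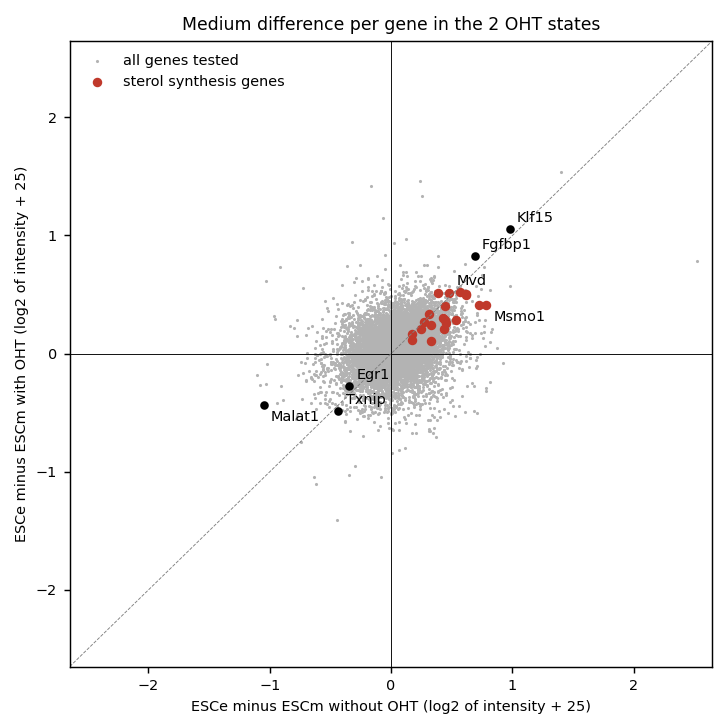
Each grey point is 1 of 12763 genes, with the difference ESCe minus ESCm without OHT on the horizontal axis and with OHT on the vertical axis, both in log2 of intensity + 25. The dashed line marks equal differences. All 20 sterol synthesis genes (red) lie in the upper right, above 0 on both axes, Klf15 stands alone near 1 on both axes, and Txnip, Egr1 and Malat1 lie in the lower left.

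The genes of cholesterol synthesis were higher without FCS throughout. All 20 tested genes of the sterol list (of 25 listed) were higher in ESCe in both OHT states, with a median difference of 0.44 without OHT and 0.29 with OHT, against 0.05 and 0.06 over all genes. In 17 of the 20 both ESCe arrays lay above both ESCm arrays, against 26.1% of all genes. None passed the main test, where 4 had an unadjusted p under 0.05. Among the 4 arrays 17 were called, against 5.59% of all genes called higher. With the 6 ESC arrays 15 were called, against 0.995%. After quantile normalization 14 were called among the 4 arrays, when 0.893% of all genes were called higher. The list kept 20 of 20 higher under quantile normalization, with a median of 0.32, and under scaling to the same median, with 0.38. OHT in the control ESC moved the list by a median of -0.01. Over all probe sets of these genes, 37 of 42 were higher in both states and 1 was lower.

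Early steps showed the difference at high intensity. Hmgcs1, which makes HMG-CoA, was at 3455 and 3834 in ESCe and 2538 and 3147 in ESCm. A weaker probe set of Hmgcs1 differed more, with 101.69 and 115.22 in ESCe and 44.17 and 47.24 in ESCm, and was 1 of 3 probe sets higher by at least 2-fold and by over 50 in both OHT states (0.00666% of 45037). Mvd, the decarboxylase that ends the mevalonate pathway, was at 392.6 and 455.8 in ESCe against 274.3 and 311.1 in ESCm, a ratio of 1.43 and 1.47. Idi1 and Fdps, which build the prenyl units, differed by 0.27 and 0.25 without OHT and by 0.27 and 0.21 with OHT. Mevalonate kinase Mvk was the smallest of the list (0.18 and 0.11, limma adjusted p = 0.427 among the 4 arrays).

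Among the enzymes committed to sterols the differences ranged widely. Fdft1, squalene synthase, stood at 1652 and 1802 in ESCe and at 1105 and 1248 in ESCm, a difference of 0.57 and 0.52 (mean 0.55, SE 0.13, limma adjusted p = 1 over 16 arrays and 1.3e-17 among the 4). The ESCe and ESCm arrays did not overlap. Sqle, squalene epoxidase, was at 2566 and 2576 against 1890 and 2230. Cyp51, lanosterol demethylase, was at 1201 and 1195 against 718.1 and 893.2, a ratio of 1.67 without OHT and 1.34 with it. Msmo1, a methylsterol oxidase that acts later, was the largest of the list at 2139 and 2308 against 1233 and 1727 (0.78 and 0.41, mean 0.60, SE 0.16). For both Cyp51 and Msmo1 the ESCm array with OHT was the nearer to ESCe, but the dependence of the medium difference on OHT was not called for any probe set (below). Hsd17b7 was at 158.2 and 163.9 against 94.2 and 107.8, and Dhcr7, the reductase that yields cholesterol, at 508.8 and 530.5 against 322.7 and 369.7. Other late enzymes differed less, such as Ebp (0.33 and 0.11) and Sc5d (0.33 and 0.24).

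Regulators of the pathway were mixed in size. Insig1, itself a target of SREBP that retains it in the endoplasmic reticulum, was at 1131 and 1331 in ESCe and 859.6 and 924.1 in ESCm (0.39 and 0.51). Srebf2, which encodes the factor that drives sterol genes, differed by 0.17 and 0.16 with overlapping arrays (limma adjusted p = 0.194 among the 4 arrays). Stard4, a carrier of sterol within the cell, differed by 0.31 and 0.33.

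At the sterol genes the control ESC in the medium with FCS were mostly below ESCe. For 17 of the 20 genes both control ESCm arrays were below both ESCe arrays of the NERT line, as for Msmo1 (1395 and 1558) and Cyp51 (846.5 and 775.3). The share of all genes with this order was not computed. In the other lists it held for 0 of 7 genes (DNA methylation) to 5 of 6 (Cdk inhibitors), so the count cannot separate medium from line. This contrast joins line with medium, and over all probe sets the lines differed more than the media. For Hsd17b7 they were at 88.27 and 76.66, below both NERT ESCm arrays. For Fdft1 they stood at 1515 and 1402, above both NERT ESCm arrays. Over the list NERT ESCm was lower than control ESCm by a median of -0.19 without OHT and higher by 0.03 with OHT, so without OHT the NERT ESCm array was the lower of the ESCm arrays. Array and medium cannot be told apart within an OHT state.

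**Figure D2:**
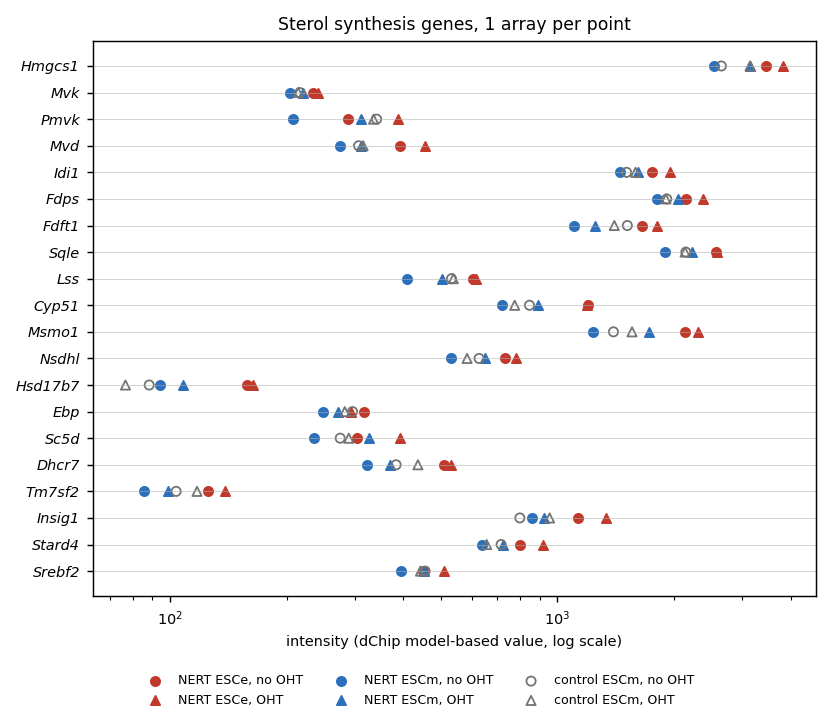
Intensity on a log axis of the 20 sterol synthesis genes, in the order of the list, on the 2 ESCe arrays (red) and 2 ESCm arrays (blue) of the NERT line and the 2 control ESCm arrays (open grey), with circles without and triangles with OHT. In 17 rows both red symbols lie to the right of both blue symbols. In 17 rows they lie to the right of both open symbols, which differ from them in line as well as in medium.

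Promoters of sterol genes were read to show the sequence these genes share upstream. Of the 20 genes, 16 have an entry in the RefSeq promoter table (GRCm38.p6, 250 bases before to 50 after a start), which does not list Fdft1, Fdps, Sqle and Stard4. The core of the sterol regulatory element, TCACNCCAC, searched on both strands, was found in 1 of the 16, Hmgcs1, and in 1.44% of the 27025 genes of the table. CCAAT, the core bound by NF-Y, which works beside SREBP at many sterol promoters, was in 16 of 16 and in 41.1% of all genes, and this motif was chosen after the values were seen. A match describes letters and not binding. Stretches of 90 bases upstream of the start follow for the gene that holds both motifs, for both enzymes of largest difference and for the regulator Insig1. They read 5′ to 3′ on the strand of the gene, and capitals mark the sterol core and CCAAT, which reads ATTGG on the other strand.
Hmgcs1, chr13:119690160-119690249, plus strand: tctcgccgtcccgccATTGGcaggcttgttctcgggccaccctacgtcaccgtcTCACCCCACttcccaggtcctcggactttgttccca
Cyp51, chr5:4104698-4104787, minus strand: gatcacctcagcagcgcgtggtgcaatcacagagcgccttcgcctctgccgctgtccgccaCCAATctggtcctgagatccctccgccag
Msmo1, chr8:64733636-64733725, minus strand: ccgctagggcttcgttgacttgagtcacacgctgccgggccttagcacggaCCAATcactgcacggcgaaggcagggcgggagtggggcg
Insig1, chr5:28071162-28071251, plus strand: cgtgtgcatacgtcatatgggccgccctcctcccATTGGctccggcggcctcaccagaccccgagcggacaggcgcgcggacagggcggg

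Fatty acid synthesis, the other branch under SREBP, differed less. Of 18 genes 12 were higher in ESCe in both states and 2 lower, with a median difference of 0.16 in either OHT state. Among the 4 arrays 5 were called higher, against 5.59% of all genes, and none lower. Lpin1, a phosphatidate phosphatase, was at 213.6 and 206.9 in ESCe and 145 and 140.4 in ESCm (0.49 in either state, SE 0.27). Acsl3, which activates long fatty acids, was at 450.4 and 507 against 342.9 and 350.2, but the control ESCm arrays stood at 471 and 487.4. Srebf1 was at 566.3 and 583 against 461.4 and 516.3. The list of lipid efflux and fatty acid oxidation had 8 of 14 genes higher and 1 lower. Against 5.59% of all genes called higher, 4 of the list were called higher among the 4 arrays. Among them was Apoe, the lipid carrier, at 1722 and 1807 in ESCe and 1455 and 1599 in ESCm.

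Klf15, a zinc finger factor of fasting metabolism and a glucocorticoid target, listed here with the FOXO targets, had the largest difference among genes with a mean of at least 100, when genes are ordered by the smaller of their 2 differences. It was at 205.9 and 238.8 in ESCe and at 92.39 and 101.8 in ESCm, so both ESCe arrays were above both ESCm arrays, and the ratio was 2.23 without OHT and 2.35 with it. The difference was 0.98 and 1.06 (SE 0.16, unadjusted p = 3.8e-05 and adjusted p = 0.982 in the limma fit over 16 arrays, adjusted p = 1.5e-15 among the 4). Control ESC in the medium with FCS, however, stood at 206.2 and 165.9, near the ESCe arrays. Klf15 was also 1 of 2 genes past a 2-fold ratio and a difference over 50 in both states, and the other was the glycosyltransferase B3gnt9, at 56.89 and 67.03 in ESCe and 6.08 and 6.65 in ESCm, where control ESCm were at 17.47 and 34.78. By these fold criteria 13 probe sets were higher in ESCe (0.0289%) and 16 lower (0.0355%) without OHT, and 12 were higher (0.0266%) and 6 lower (0.0133%) with OHT. In both states 3 were higher and 0 lower. The control ESC arrays without and with OHT differed by the same criteria at 12 probe sets one way and 10 the other.

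Of the genes held down by growth factor signals through FOXO, 11 of 19 were higher in ESCe in both states and 1 was lower (median 0.17 in either state). Among the 4 arrays 4 were called higher, against 5.59% of all genes, and 1 lower, against 1.02%. Pdk4, the kinase that shuts pyruvate dehydrogenase, was low but apart, at 44.57 and 47.14 in ESCe and 26.27 and 23.23 in ESCm. Control ESCm were at 43.64 and 42.52, again at the ESCe level. Trim63, a ubiquitin ligase, was at 198.3 and 276.7 against 147.8 and 198.5.

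The member that was lower was Txnip, the thioredoxin-binding protein that reports glucose supply. It stood at 1448 and 1281 in ESCe and 1964 and 1804 in ESCm, so ESCe of the NERT line were lower in both pairs with no overlap (-0.43 and -0.49, SE 0.19, limma adjusted p = 1 over 16 arrays and 2.1e-13 among the 4), and both its probe sets showed this. Control ESC in the medium with FCS, however, were at 1597 and 1454, the latter next to the ESCe array without OHT. Its relative Arrdc3 was at 536.2 and 569 against 683.3 and 670.2. Of the 8 glucose-responsive genes 4 were lower and 2 higher in both states.

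Pluripotency genes differed little. Of 20 genes 12 were higher and 4 lower in ESCe in both states, with medians of 0.04 and 0.06 close to that of all genes. Among the 4 arrays 4 were called higher, against 5.59% of all genes. Fgf4, the autocrine signal of ESC, was at 694.8 and 664.5 in ESCe and 533.4 and 514.1 in ESCm, with control ESCm at 650 and 642.3. Klf5 was at 2282 and 2197 against 1738 and 1987. In the early mesoderm list 6 of 17 genes were higher in ESCe and 5 lower in both states, and in the neuroectoderm list 7 of 14 and 3.

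Of the feedback genes of LIF and Jak-Stat signals 7 of 11 were higher in ESCe and 2 lower in both states, against 46.2% and 18.7% of all genes, with a median of 0.15 and 0.17. After quantile normalization 7 were higher and 3 lower, with a median of 0.09 in either state. Socs3, the inhibitor induced by Stat3, was at 1055 and 1231 in ESCe and 803.2 and 1023 in ESCm (0.38 and 0.26). The kinase Pim3 was at 1316 and 1262 against 1090 and 1061. For both genes control ESCm were lower still, at 652.6 and 685.2 for Socs3 and 940.2 and 844.4 for Pim3. Bmp4, which works with LIF in ESC, was at 1419 and 928.3 in ESCe and 850.1 and 756 in ESCm, and control ESCm were at 1073 and 1095. Foxd3, a factor of ESC and epiblast, was at 308.8 and 204 against 251.7 and 111.3.

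Lists of genes through which serum is usually read had small median differences after 4 h. The SRF and actin list had 6 of 21 genes higher and 3 lower in both states, with no call among the 4 arrays and a median of 0.02 and -0.03. The smooth muscle actin Acta2, a target of SRF, was at 5429 and 5651 in ESCe and 5518 and 5948 in ESCm. Of 19 immediate early genes 7 were higher and 5 lower. Among the 4 arrays 2 were called higher, against 5.59% of all genes, and 1 lower, against 1.02%. Egr1, an early factor downstream of MAP kinase, was lower without FCS within each OHT state, at 483.1 and 789.6 against 619.9 and 961.2 (-0.34 and -0.28, SE 0.13), and the arrays with OHT were higher in both media, so the groups overlapped. Egr1 was the 1 called lower, also after quantile normalization but not with the 6 ESC arrays. Control ESCm, with FCS, were at 508.8 and 444.3, no higher than ESCe with OHT and close to ESCe without it. Fos was at 41.85 and 78.01 against 50.76 and 87.61.

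Of the MAP kinase feedback genes 11 of 16 were higher in ESCe and 1 lower in both states, against 46.2% and 18.7% of all genes, with medians of 0.06 and 0.11. Of these, 2 were called among the 4 arrays, and after quantile normalization 9 were higher and 3 lower. Spry1 was at 277.8 and 250.4 against 206.2 and 192.3. The lists of YAP and TGF-beta matrix targets (9 of 15 higher, 1 lower), BMP targets (4 of 14, 1), Nodal targets (4 of 12, 3) and Wnt targets (4 of 13, 5) had medians from -0.07 to 0.07, with 1, 2, 0 and 0 calls among the 4 arrays. The genes of the Notch pathway had 10 of 21 higher and 3 lower. Nrarp, a direct Notch target, was at 110.3 without and 1691 with OHT in ESCe, and at 113.4 and 1769 in ESCm, a ratio of ESCe to ESCm of 0.97 without and 0.96 with OHT.

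The metal list had 5 of 14 genes higher and 5 lower in both states. Slc39a10, a zinc importer, was higher in ESCe, at 1365 and 1406 against 966.6 and 1013 (0.49 and 0.46, SE 0.13). The zinc exporter Slc30a1 was lower, at 280.7 and 354.9 against 361.2 and 449.9, and so were the metallothioneins Mt2, at 5230 and 5648 against 6450 and 6638, and Mt1, at 4608 and 4737 against 5158 and 5420. All 4 were called among the 4 arrays, against 5.59% of all genes called higher and 1.02% lower, and the NERT groups did not overlap. Control ESCm, however, had Slc30a1 at 298.3 and 334.7, within the range of the ESCe arrays. The iron exporter Slc40a1 was higher within each OHT state, at 264.8 and 164.9 against 219 and 134.4, and was not called.

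The other stress and growth lists named here had medians from -0.05 to 0.03, against 0.05 and 0.06 over all genes. Of all genes 46.2% were higher and 18.7% lower in both states. The unfolded protein, Myc, and G1 and S lists leaned lower than that. Slc38a2, a carrier of neutral amino acids, was at 3626 and 2739 in ESCe and 2981 and 2194 in ESCm, in a list of amino acid response genes with 12 of 32 higher and 7 lower. Among 20 genes of the unfolded protein response 8 were higher and 7 lower. The chaperones Hspa5 (5460 and 6936 against 6226 and 7571) and Calr (3451 and 3959 against 3886 and 4284) and the secreted Manf (2450 and 2673 against 2658 and 3098) were the 3 called among the 4 arrays. Each was lower, against 1.02% of all genes called lower, and for each the ESCe and ESCm arrays overlapped. With the 6 ESC arrays, and after quantile normalization of the 4, 0 of the list were called lower. In the list of Myc and ribosome synthesis genes 7 of 22 were higher and 9 lower. Nop58, of the snoRNP core, was at 2171 and 2078 against 2621 and 2479, and Pa2g4, a ribosome factor, at 4696 and 4754 against 5490 and 5511. These were the 2 of the list called lower among the 4 arrays, against 1.02% of all genes. With the 6 ESC arrays, and after quantile normalization of the 4, the list also had 2 called lower. In the list for G1 and S phase 5 of 23 were higher and 9 lower, and Cdc25a, the phosphatase that starts S phase, was at 983.3 and 1079 against 1245 and 1284. It was the 1 of the list called lower among the 4 arrays, against 1.02% of all genes. In the other 2 fits the list also had 1 called lower. The median of 11 of the 39 lists changed sign with the scaling of the arrays. These were the immediate early, SRF, YAP, Wnt, Notch, amino acid, unfolded protein, metal, Myc, G2 and M, and heat shock lists.

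**Figure D3:**
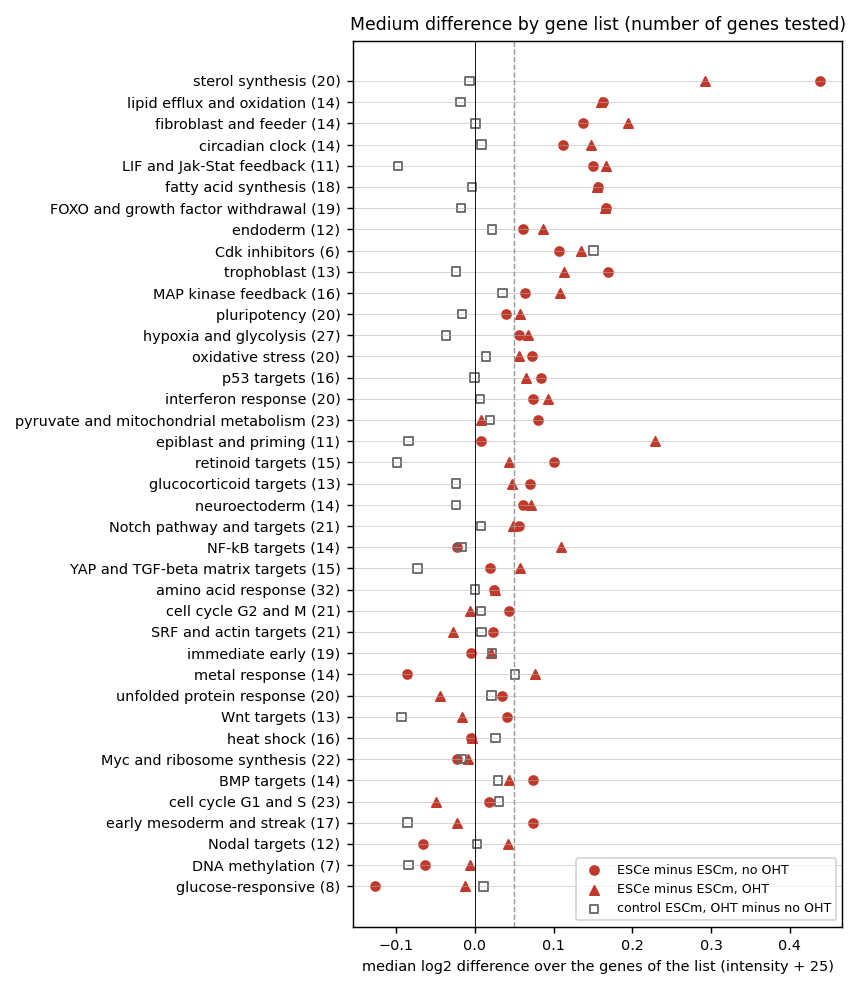
Median log2 difference (intensity + 25) over the tested genes of each of the 39 lists, with the number of genes in parentheses, for ESCe minus ESCm without OHT (red circles) and with OHT (red triangles), and for OHT in control ESCm (open squares). The dashed line is the median of all genes, 0.05. The sterol list lies at 0.44 and 0.29, apart from the others, whose highest median is 0.23.

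Among genes in none of these pathways, the largest differences were ordered by the smaller of the pair, over calls among the 4 arrays with a mean of at least 100, a rule set after the values were seen. Fgfbp1, which releases FGF from the matrix, was at 395.6 and 339.7 in ESCe and 235.8 and 180.7 in ESCm (0.69 and 0.83, SE 0.14), with control ESCm at 241.2 and 209.3 beside NERT ESCm. Bmf, a BH3 protein that promotes apoptosis, was at 212.1 and 189.8 against 130.3 and 101.9. Rprd1a, a factor of RNA polymerase II, was at 531.7 and 586.9 against 364.6 and 352.3, and control ESCm were at 360.3 and 342.8. Fgfbp1 and Rprd1a thus separated ESCe from all 4 ESCm arrays. So did Bmf, with control ESCm at 163.5 and 143.4, between the NERT groups.

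Dpp7, a lysosomal peptidase, was at 365.3 and 356.2 against 208.1 and 236.4, and Clcn6, an endosomal chloride transporter, at 411.5 and 428 against 269.8 and 295.5. Fnip1, a partner of folliculin in nutrient sensing, was at 291.6 and 287.1 against 168.2 and 197.7. Control ESCm also lay below both ESCe arrays for Dpp7 (312.7 and 316.7), Clcn6 (308.5 and 328.9) and Fnip1 (233.1 and 256.6), above the NERT ESCm arrays. Glrx, glutaredoxin, was at 208.9 and 220.1 against 132.4 and 139.7, but control ESCm were at 408.9 and 397.4, above every NERT array.

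The lower genes were fewer in the values as deposited. After quantile normalization this did not hold, with 186 probe sets called higher and 190 lower among the 4 arrays. Malat1, a nuclear long non-coding RNA, was at 668.4 and 748.6 in ESCe and 1410 and 1022 in ESCm, with control ESCm at 1345 and 1722. Only 3 of its 7 probe sets were lower in both states. The SE over 16 arrays was 0.67, larger than for other named genes. Csnk2a1, a subunit of casein kinase 2, was at 2269 and 2095 against 2847 and 2663, and control ESCm were at 2891 and 3006, on the side of ESCm.

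**Figure D4:**
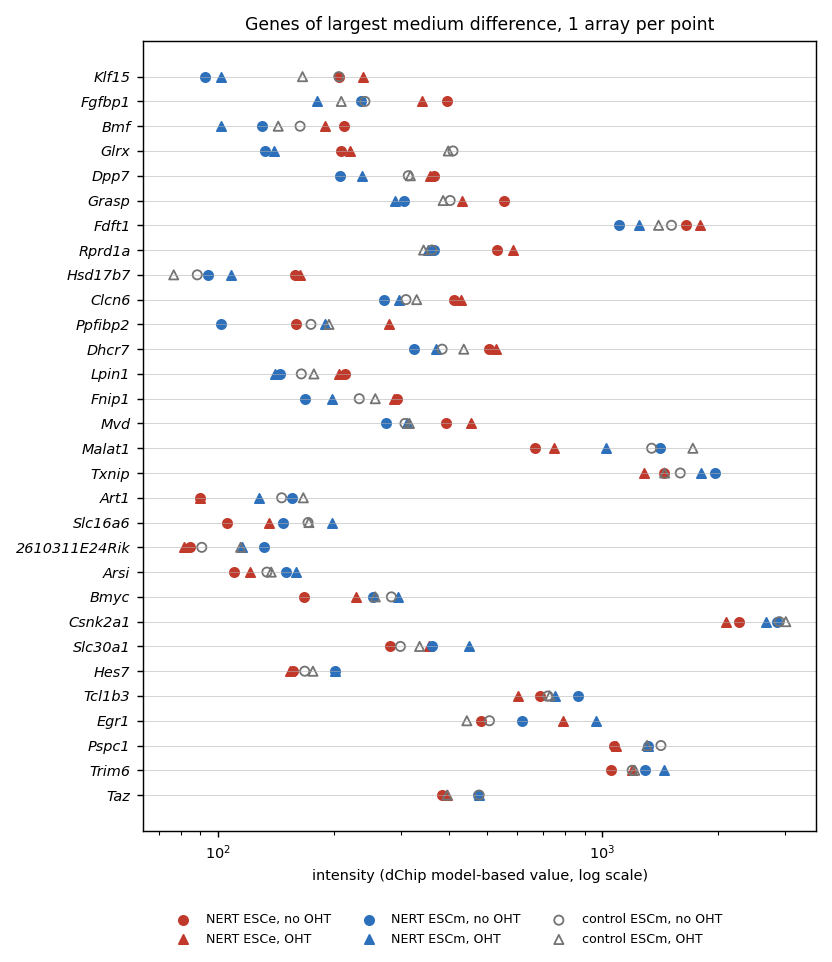
Intensity on a log axis of the 15 genes highest and the 15 genes lowest in ESCe, ordered by the smaller of the 2 differences, on the 6 ESC arrays, with symbols as in the plot of sterol genes. For Fgfbp1 and Rprd1a the open control ESCm symbols lie with the blue ESCm symbols, whereas for Klf15 and Glrx they do not.

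Whether the medium difference depended on OHT was tested with the 12 conditions as groups, which takes the spread from the mesodermal replicates (limma, 4 residual degrees of freedom). It called 0 of 25847 probe sets (0%), and 185 had an unadjusted p under 0.05 (0.716%). A difference in the response of the media to OHT was therefore not detectable with single arrays.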

How the data were processed

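Expression was measured on Affymetrix mouse arrays. The authors deposited linear intensities, obtained with dChip's model after invariant-set normalization, for which control mesoderm +OHT was the baseline, and they were used unscaled. Detection calls were not used. Of 45037 probe sets 34945 name 1 gene, and 18193 genes were read from their probe set with the highest mean. Array medians were 42.0 to 46.9, and the number of arrays limits precision. Log2 (intensity + 25) of 25847 probe sets with a condition mean of at least 50 was fitted in R 4.3.3 by limma 3.58.1 (lmFit, then eBayes with a variance trend), with 1 coefficient for the medium over both OHT states and Benjamini-Hochberg adjustment (threshold 0.05, two-sided), after a test on simulated data. Lists were described by counts and medians. Named genes are those past a 2-fold ratio and a difference over 50 in both OHT states, up to 6 members of each list by size, and the 15 largest per direction, with a few members added for their role. The members and lists were chosen with earlier results of these data known. Alternatives covered the pseudocount, filter, scaling, variance trend, arrays in the fit and fold criteria. Python 3.11.15 made the other tables.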

Additional observations from a re-analysis of the deposited data

How the results depend on the processing

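The number of probe sets called depended on which arrays set the spread, on the variance trend and on the scaling. The fit over 16 arrays called 0 under each pseudocount, filter, scaling and trend tried, with the 12 NERT arrays and with the 12 conditions as groups. Leaving out 1 array at a time gave 0 to 1 calls, with 1 without NERT ESCe -OHT or without NERT ESCm -OHT. With a replicate block for the mesodermal arrays, whose replicate numbers are the only ones shared between groups, it called 0, and 0 for the dependence on OHT. The 4 NERT ESC arrays alone gave 1433 calls, and alternatives chosen after seeing the data gave 376 with quantile normalization, 1775 with the same median, 1184 with a pseudocount of 5, 1276 with one of 50, 0 without the variance trend and 264 with the 6 ESC arrays. The cause of the shift with scaling was not tested. No array can be left out of the 4, since no residual degree of freedom remains. The 3 probe sets past the fold criteria became 15 at 1.5-fold, 1 at 3-fold, 817 without a minimum difference and 1 with a minimum of 100. Of the sterol genes 20 were higher under both other scalings. The pseudocount and the level filter could not change the sign of a gene, so they add nothing to this count. Over all probe sets 37 of 42 were higher. Of 46 genes followed none reversed, but most settings left the ESC values as they were and could not reverse a difference. Under some alternative 43 were called. This was fixed in advance for genes picked by their call among the 4 arrays, which is itself 1 of the alternatives.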

Other observations

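Lysosomal genes were also higher in the medium without FCS. The list was drawn up after Dpp7, Grn, Clcn6 and Fnip1 had been seen among the largest differences, so it is described and not tested. Lysosomes digest what the cell takes up, and the factors TFEB and TFE3 raise their genes through E-box motifs when nutrients run short. Of 46 tested genes of lysosomal enzymes, membrane proteins and nutrient sensing, 38 were higher in ESCe in both OHT states and 2 were lower, with a median difference of 0.21 without OHT and 0.18 with OHT against 0.05 over all genes. Both ESCe arrays lay above both ESCm arrays for 29 of the 46, against 26.1% of all genes. The list was chosen with this pattern in view, so its counts are no independent support for it. After quantile normalization 35 were higher and 2 lower. None passed limma over 16 arrays, where 9 had an unadjusted p under 0.05. Grn, which encodes progranulin, was at 1233 and 1252 in ESCe and 841.3 and 897.2 in ESCm. Ctsa, a lysosomal carboxypeptidase, was at 487.2 and 475.6 against 362.2 and 374.9, and Tpp1, a lysosomal peptidase, at 1138 and 1234 against 899.5 and 1068. Neu1, the sialidase, was at 65.47 and 75.13 against 41.4 and 51. Lamp1, a lysosomal membrane protein, and the protease Ctsd differed less, by 0.10 and 0.13 without OHT. The control ESCm arrays, which differ from ESCe in line as well as in medium, were below both ESCe arrays for 21 of the 46. The share of all genes was not computed. In the other lists this order held for 0 of 7 genes (DNA methylation) to 17 of 20 (sterol synthesis), so the count is not particular to lysosomal genes. For Ctsa they stood at 498.6 and 542.5, above every NERT array. The E-box CACGTG, a motif also chosen for this list after the values were seen, was in 20 of 42 promoters of the list and in 8.09% of all genes, a description that says nothing of binding.

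Other genes that differed the same way in both OHT states were the clock factors Dbp (101.3 and 98.21 in ESCe, 62.18 and 73.04 in ESCm) and Arntl (204.6 and 226.1, 147.1 and 178.9), in a list with 10 of 14 genes higher and 3 lower. Of all genes 46.2% were higher and 18.7% lower. Over all probe sets of the clock list 11 of 28 were higher and 8 lower, so its lean was not held by other probe sets. Crabp2, a carrier of retinoic acid, was at 83.93 and 80.63 against 53.23 and 46.07. For both Dbp and Crabp2 the control ESCm arrays reached the ESCe level, with 94.3 and 112.9 for Dbp and 82.47 and 79.2 for Crabp2.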
